A study of Mus musculus with 8 samples.

Results

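S100g and Cdh16 are 2 of 1931 genes in a deposited table of kidney transcripts from mice given propionate and from control mice, and they were taken from it by name. S100g encodes calbindin-D9k and Cdh16 encodes kidney-specific cadherin (Ksp-cadherin). The study asked how propionate, which gut bacteria form from dietary fibre, acts in lupus. All 8 mice were MRL-lpr, a strain that carries the lpr mutation of the death receptor gene Fas and develops lupus-like kidney disease on its own. All were 12 weeks old. The propionate group of 4 mice had drinking water with 200 mM propionate for 6 weeks. The control group of 4 mice carries the same strain, age and time labels, and what these mice drank was not stated. Each library is 1 kidney sample, and the labels do not say that any were pooled. The labels do not give the sex of the mice.

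Calbindin-D9k is a small cytosolic protein that binds calcium through EF-hand loops. In the distal convoluted and connecting tubule of the mouse kidney it carries calcium from the luminal entry channel to the pump and exchanger on the blood side, and its gene is induced by vitamin D. Ksp-cadherin is an adhesion protein of the lateral membrane of tubular epithelium. It belongs to the cadherins with a short cytoplasmic tail that lacks the usual catenin-binding region.

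Calbindin-D9k is encoded by a very short gene, which is shown because the reads of S100g fall on so little sequence. In the GENCODE M21 annotation of GRCm38, S100g lies on the minus strand of chromosome X from 162961992 to 162964599 and has 3 exons that join into a transcript of 480 bases. Of these, 240 are coding. The coding sequence is read from the GENCODE transcript, and its capitals mark the 36 bases that code for the 12-residue calcium-binding loop of the carboxy-terminal EF-hand. The promoter is read from RefSeq on build GRCm38.p6, minus strand, chrX:162964590-162964849, that is 250 bases before the annotated start and 10 after it, and its capitals mark matches to the motifs searched. A promoter for Cdh16 was not used here.
S100g coding sequence: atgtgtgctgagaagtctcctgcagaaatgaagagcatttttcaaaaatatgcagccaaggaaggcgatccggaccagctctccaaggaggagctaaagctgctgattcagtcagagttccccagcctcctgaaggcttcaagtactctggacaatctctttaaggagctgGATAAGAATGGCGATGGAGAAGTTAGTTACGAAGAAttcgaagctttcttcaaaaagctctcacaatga
S100g promoter: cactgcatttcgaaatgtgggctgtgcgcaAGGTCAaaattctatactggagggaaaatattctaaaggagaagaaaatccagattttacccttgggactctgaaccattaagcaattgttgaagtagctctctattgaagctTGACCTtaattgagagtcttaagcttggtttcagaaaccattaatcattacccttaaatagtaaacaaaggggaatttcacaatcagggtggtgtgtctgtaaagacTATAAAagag

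AGGTCA, a core motif of nuclear receptors such as the vitamin D receptor, occurred at -220 to -215 on the gene's strand. It occurred again at -107 to -102 as its reverse complement TGACCT. At least 1 match on either strand was present in 14.5% of 32851 RefSeq promoter windows cut in the same way. The TATA box letters TATAAA occupied positions 1 to 6 of the annotated transcript, and 12.7% of the windows held them on either strand. None of the matches overlapped another. Motif matches describe the letters alone.

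Cdh16 lies on the minus strand of chromosome 8 from 104601911 to 104624396 in the same annotation. The deposited table places S100g at 161744988 to 161747595 on chromosome X and Cdh16 at 105328543 to 105351028 on chromosome 8. These spans are equally long, 2608 and 22486 bases, but follow another build than GRCm38, although mm10 is the build in the submitters' processing notes. The gene length behind the FPKM values is 480 bases for S100g and 3792 for Cdh16. The whole of S100g lies within the span of Ctps2, a gene on the opposite strand, without sharing an exon base with it. Whether counting used strand was not stated, so unspliced Ctps2 reads and S100g reads cannot be told apart. No annotated gene overlaps Cdh16.

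Libraries held 24608712 to 26711127 assigned reads in the propionate group and 20005328 to 26002214 in the control group. The genes of the table made up 13.4% to 15.1% of them. The authors had kept genes with an unadjusted p up to 0.05 in a comparison of these same libraries, and S100g and Cdh16 were selected on their difference between these groups, which is therefore described without a test. The values they were chosen by stand in the authors' deposited table as a log2 fold change of 0.55 (adjusted p 0.00827) for S100g and of 0.26 (adjusted p 0.0289) for Cdh16. The authors' deposited table puts 8.13% of its genes under an adjusted p of 0.05, 2.8% higher and 5.33% lower with propionate.

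S100g transcripts were more abundant in every propionate kidney than in any control kidney. Scaled read counts, which are counts divided by 1 size factor per library, were 8899, 10043, 8976 and 10130 for S100g in propionate mice 1 to 4, against 4709, 7845, 6337 and 7041 in control mice 1 to 4. The groups did not overlap, with a gap of 1054 between the lowest propionate mouse and the highest control mouse. The mean was 9512 ± 665 scaled counts with propionate and 6483 ± 1333 in controls (SD, n = 4 each), a ratio of 1.47. On the log2 scale the edgeR fit over the 1792 genes left by its filter on low counts gave a difference of 0.51 ± 0.13 (SE). Raw read counts for S100g ran from 9060 to 10265 in the propionate libraries and from 4917 to 8419 in the control libraries.

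The propionate mice resembled each other more closely in S100g than the controls did. The coefficient of variation of its scaled counts was 6.99% with propionate and 20.6% in controls. The highest mouse was 1.14 times the lowest with propionate and 1.67 times the lowest in controls. Control mouse 1 was the lowest of all 8, and without it the control coefficient of variation was 10.7%, the highest control was 1.24 times the lowest and the log2 difference of S100g was 0.39. No test of the spread was made.

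Cdh16 differed by less than S100g and also without overlap. Its scaled counts were 27498, 27347, 25107 and 30061 in propionate mice 1 to 4, against 21699, 23554, 22507 and 23992 in control mice 1 to 4. The gap between the lowest propionate mouse, number 3, and the highest control mouse, number 4, was 1115. Mean levels were 27503 ± 2026 scaled counts with propionate and 22938 ± 1034 in controls (SD, n = 4 each), a ratio of 1.2. The log2 difference by edgeR was 0.22 ± 0.06 (SE). The coefficient of variation of Cdh16 was 7.37% with propionate and 4.51% in controls, so the wide control spread of S100g was not seen for Cdh16. Groups without overlap and with propionate above were found for 24.1% of all listed genes. The authors' choice of genes favours such a gap, so it says nothing further of these 2 genes.

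**Figure D1:**
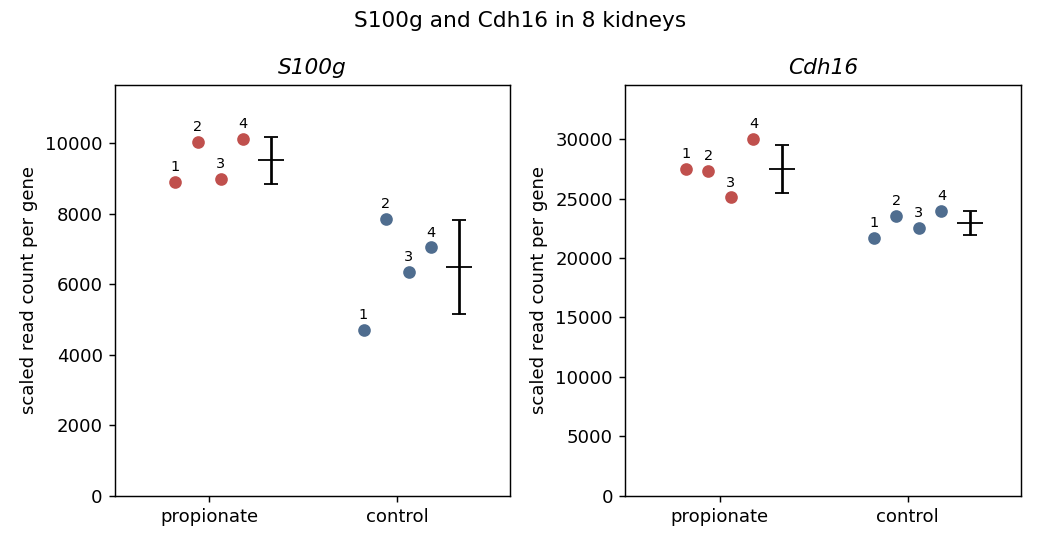
Scaled read counts of S100g (left) and Cdh16 (right) in each mouse, with the replicate number beside each point and the mean ± SD beside each group (n = 4 each). All propionate points lie above all control points for both genes, and the S100g controls spread from 4709 to 7845.

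Set per kilobase of gene length, S100g was the more abundant transcript of the pair. It had 752, 869, 759 and 859 FPKM in propionate mice 1 to 4, against 400, 675, 534 and 604 FPKM in control mice 1 to 4. Cdh16 had 294, 300, 269 and 323 FPKM in the propionate mice and 233, 256, 240 and 260 FPKM in the controls. The FPKM ratio of S100g to Cdh16 was 2.74 ± 0.156 with propionate and 2.22 ± 0.381 in controls (SD, n = 4 each). Its single values were 2.56, 2.9, 2.82 and 2.66 in the propionate mice, against 1.71, 2.63, 2.22 and 2.32 in the control mice. These groups overlapped, since control mouse 2 exceeded propionate mouse 1.

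By mean FPKM over all 8 mice, S100g ranked 7 and Cdh16 ranked 34 among the 1931 listed genes. Among the 54 genes that were higher at an adjusted p under 0.05 in the authors' deposited table, they ranked 2 and 3 by mean FPKM. Only Cltrn, which encodes collectrin, a partner of amino acid transporters in the proximal tubule, ranked above them there (775 FPKM). By size of the log2 fold change in the authors' deposited table, S100g ranked 16 and Cdh16 ranked 47 of these 54, whose median was 0.422.

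**Figure D2:**
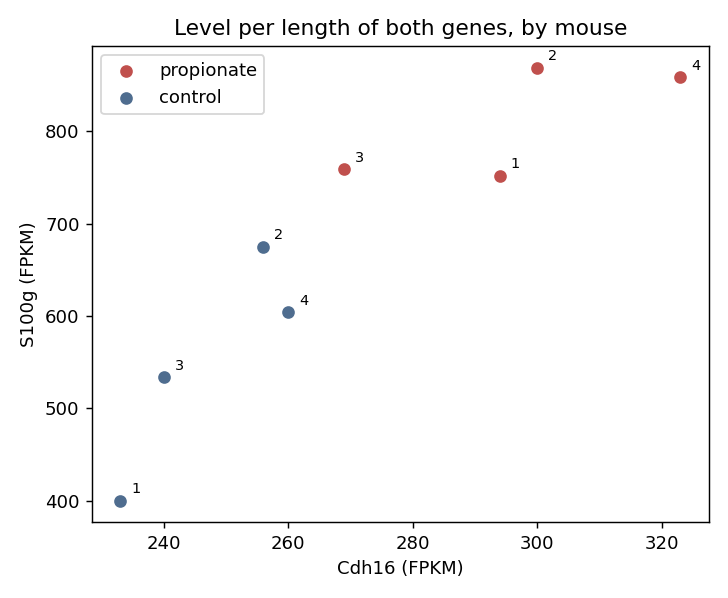
FPKM of Cdh16 (horizontal axis) and S100g (vertical axis), 1 point per mouse with its replicate number; the axes do not start at 0. The propionate mice lie above and to the right of the control mice, with control mouse 1 lowest for both genes at 233 and 400 FPKM.

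The order of the mice within a group was partly shared by the 2 genes in scaled counts. In both, propionate mouse 4 was the highest and control mouse 1 the lowest. Among the propionate mice, number 1 was the lowest for S100g and number 3 for Cdh16. In the controls, number 2 was the highest for S100g and number 4 for Cdh16.

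Listed macrophage markers were lower with propionate. Their sum ran opposite to S100g in order within each group, but not across the groups. Of 16 macrophage markers, 5 were listed (Cd68, Itgam, Mrc1, Adgre4 and Cx3cr1), and all 5 were lower with propionate, with a median log2 difference of -0.737 beside 0.114 for all tested genes. By edgeR, with adjustment over the tested genes, 2 of the 5 passed at 0.05, as did 67.9% of all tested genes (25.9% higher and 41.9% lower), which their selection favours. The count was 4 without propionate replicate 1, and 1 without propionate replicate 3 or 4, without control replicate 1 or 3, or with a trend in gene length and GC content removed. Cx3cr1 and Cd68, the most abundant of the 5, did not pass in the main edgeR fit (adjusted p = 0.0706 and 0.0711). In the authors' deposited table Adgre4 alone was past 0.05. The summed scaled counts of the 5 were 767, 427, 731 and 395 in propionate mice 1 to 4, against 1209, 594, 1139 and 797 in control mice 1 to 4. Within the propionate group the order from lowest to highest S100g (mice 1, 3, 2, 4) is the order from highest to lowest macrophage sum, and the same holds within the controls (mice 1, 3, 4, 2). Across the groups the opposite order did not hold, since the sums overlapped. Control mouse 2 (594) lay below propionate mice 1 and 3 in the sum, and below them in S100g too. For Cdh16 the opposite order did not hold in full in either group. A match with the order of S100g was not particular to macrophage markers. Fxyd2, a gene of the calcium-handling list, followed that order from lowest to highest in both groups. It had 37908, 42069, 42052 and 48969 scaled counts in propionate mice 1 to 4. In control mice 1 to 4 it had 32816, 39678, 36351 and 37020. These comparisons were made after the values were seen, and the part of macrophage content in the S100g difference was not tested. Fewer cells of a type and less RNA per cell cannot be told apart in whole kidney. The defining markers Adgre1, Csf1r and C1qa were not analysed here.

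Genes of calcium handling in the distal nephron did not share a direction. Of 41 symbols, 7 were listed, 3 higher and 4 lower with propionate. By edgeR all 7 passed, beside 67.9% of all tested genes. The authors' deposited table has 1 of the 7 past that threshold. The 7 had a median log2 difference of -0.186, beside 0.114 for all tested genes. Without propionate replicate 3, or without control replicate 3, the number past edgeR's adjustment was 0, with adjusted p-values of 0.054 to 0.0826 and 0.0541 to 0.0923. It was 1 without propionate replicate 4 or control replicate 1, 2 without control replicate 2 or 4, 4 without propionate replicate 2, and 3 (2 higher and 1 lower) with the trend in gene length and GC content removed.

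Casr, the calcium-sensing receptor that restrains calcium reabsorption in the thick ascending limb, was the member that fell by both adjustments. It had 816, 997, 746 and 695 scaled counts in propionate mice 1 to 4, against 1170, 1065, 1097 and 1012 in control mice 1 to 4. The groups did not overlap, as for 23.5% of all listed genes with propionate below. Its log2 difference was -0.46 ± 0.11 (SE), at an adjusted p of 0.0254 by edgeR and 0.0445 in the authors' deposited table. The edgeR call ended at -0.42 (adjusted p = 0.054) without propionate replicate 3 and at -0.45 (adjusted p = 0.0541) without control replicate 3. These edgeR adjustments covered only listed genes, which were selected on these same libraries, so they are not independent of the deposited one. Adjusted over all genes behind the deposited adjustment, the edgeR p of Casr was 0.228, which did not pass.

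The other 6 calcium-handling genes did not pass in the authors' deposited table, where their adjusted p-values ran from 0.214 for Pvalb to 0.408 for Atp2b1. Pvalb, the calcium buffer parvalbumin of the early distal convoluted tubule, averaged 1887 ± 142 scaled counts with propionate and 1618 ± 108 in controls (SD, n = 4 each), with overlapping groups. Atp2b1, a plasma membrane calcium pump, averaged 1440 ± 113 with propionate and 1620 ± 97.6 in controls. The log2 difference of Atp2b1 was -0.21 and turned to 0.23 once a trend in gene length and GC content was removed. Fxyd2, the gamma subunit of the sodium pump, averaged 42749 ± 4585 with propionate and 36466 ± 2826 in controls. Kcnj10, a basolateral potassium channel, averaged 1814 ± 28.8 with propionate and 2007 ± 138 in controls, and without the trend its log2 difference was -0.01. Cldn14, a claudin that limits calcium passage between cells of the thick ascending limb, averaged 30.8 ± 12.5 with propionate and 16.7 ± 1.88 in controls. Kcna1, a luminal potassium channel, was at 14.7, 0.978, 6.45 and 1.98 with propionate, against 15.3, 22.4, 13.4 and 27.9 in controls. Counts for Cldn14 and Kcna1 are low and their groups overlapped.

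Among S100 and other EF-hand proteins, 2 of 46 symbols were listed, Pvalb and Calm3. Calm3, a calmodulin gene, averaged 6251 ± 622 scaled counts with propionate and 5562 ± 115 in controls (SD, n = 4 each). Its log2 difference of 0.13 did not pass by edgeR (adjusted p = 0.0655) or in the authors' deposited table (adjusted p = 0.372), and was -0.01 without the trend. Other S100 genes and Calb1, which encodes the larger calbindin-D28k, were not analysed here.

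In the cadherin and catenin list, 5 of 75 symbols were listed, 2 higher and 3 lower, with a median log2 difference of -0.274. The authors' deposited table has 0 of the 5 past an adjusted p of 0.05 (0.156 to 0.446), and all 5 under an unadjusted p of 0.05 by selection. By edgeR 1 passed higher and 3 lower, beside 25.9% and 41.9% of all tested genes. The count was 0 without propionate replicate 3 or control replicate 3, 2 without propionate replicate 4 or control replicate 2, and 1 with the trend in gene length and GC content removed. Cdh6, Cdh20 and Dsg2 stood on the other side of 0 from Cdh16, though Cdh6 did not once that trend was removed. Cdh6, a classical cadherin of the proximal tubule, had 701, 654, 661 and 673 scaled counts in propionate mice 1 to 4, against 834, 803, 804 and 720 in control mice 1 to 4. These groups did not overlap, and the log2 difference of Cdh6 was -0.27, which turned to 0.14 without the trend. Dsg2, a desmosomal cadherin, averaged 592 ± 60.8 with propionate and 722 ± 32.6 in controls, a log2 difference of -0.33 that was -0.04 without the trend. Cdh20 was at 5.53 to 12.7 scaled counts with propionate and 18.2 to 24.9 in controls. These counts are low, with a mean of 0.102 FPKM with propionate and 0.232 FPKM in controls. Nectin2, an adhesion receptor of the immunoglobulin family, averaged 844 ± 69.4 with propionate and 708 ± 55.5 in controls. Clstn1, calsyntenin 1, averaged 3421 ± 164 with propionate and 3140 ± 135 in controls.

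**Figure D3:**
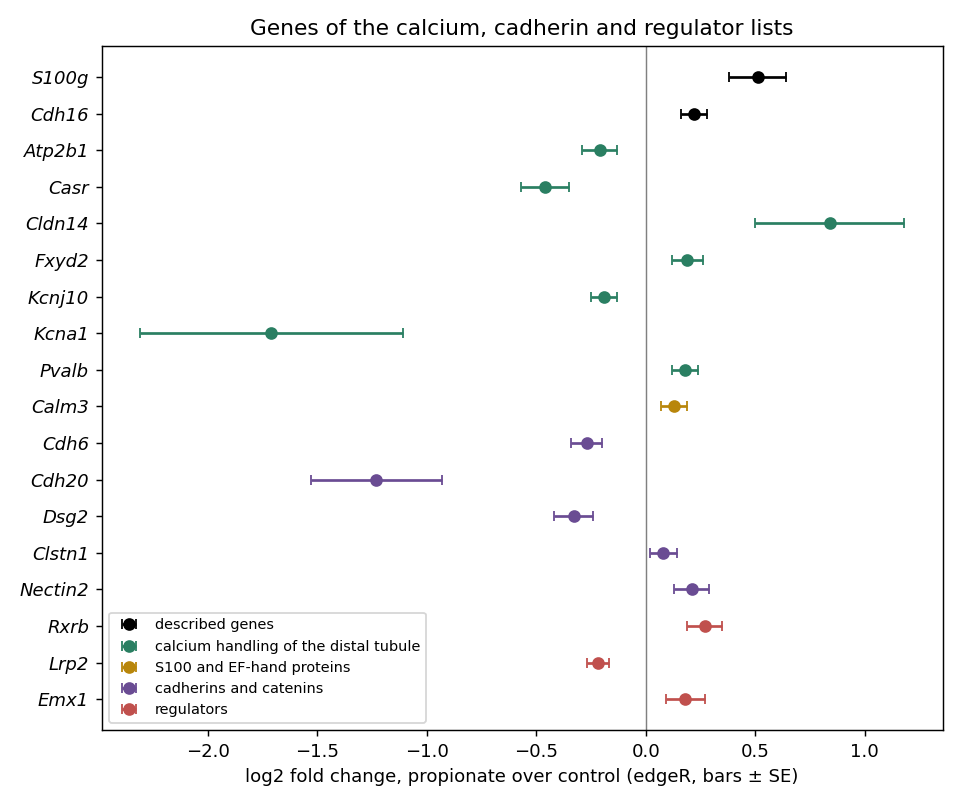
Log2 difference, propionate over control, by edgeR with TMM scaling (horizontal axis, bars ± SE) for S100g, Cdh16 and every listed gene of the calcium, EF-hand, cadherin and regulator lists, each coloured by list. S100g (0.51) and Cdh16 (0.22) lie right of 0, while Casr (-0.46) and the cadherins Cdh6 (-0.27), Dsg2 (-0.33) and Cdh20 (-1.23, at low counts) lie left. With a trend in gene length and GC content removed, Cdh6 and Atp2b1 and Lrp2 turn to the right and Calm3 to the left.

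The regulator list, which also covers vitamin D, had 3 of 30 symbols listed, 2 higher and 1 lower. By edgeR 1 passed higher and 1 lower, 2 of 3 beside 67.9% of all tested genes. The count that passed in the authors' deposited table was 0, at unadjusted p-values of 0.000536 to 0.0445 that the selection of genes held under 0.05. The edgeR count was 0 without propionate replicate 3, propionate replicate 4 or control replicate 3, and 0 with the trend in gene length and GC content removed, at adjusted p-values of 0.0519, 0.051, 0.0579 and 0.0675 or above in that order. Rxrb, a dimer partner of the vitamin D receptor, averaged 1059 ± 134 scaled counts with propionate and 850 ± 35 in controls (SD, n = 4 each), without overlap. Its log2 difference was 0.27, and the authors' deposited table lists an adjusted p of 0.105, which did not pass. Lrp2, megalin, the proximal tubule receptor that takes up filtered vitamin D with its binding protein, averaged 48778 ± 813 with propionate and 55276 ± 2605 in controls. Its log2 difference was -0.22 and became 0.06 without the trend in gene length and GC content. For Lrp2 the authors' deposited table lists an adjusted p of 0.0528, which did not pass. Emx1, a homeobox factor of the distal convoluted tubule, averaged 973 ± 95.4 with propionate and 837 ± 88.7 in controls, with overlapping groups. Vdr, Cyp24a1, Cyp27b1 and Pax8 were not analysed here.

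Markers of the distal convoluted and connecting tubule, the segments in which S100g is expressed, were listed for 4 of 21 symbols, and all 4 were higher with propionate. The authors' deposited table has 0 of the 4 past an adjusted p of 0.05 (0.173 to 0.425), with unadjusted p-values under 0.05 by selection. By edgeR 1 of the 4 passed, Pvalb, beside 67.9% of all tested genes. The count was 0 without propionate replicate 3 or 4 or without control replicate 1, 3 or 4. It was 2 with total-count scaling, limma or the trend in gene length and GC content removed, 3 with the deposited size factors and 4 with DESeq2. Without the trend the log2 difference of Tmem52b was 0.39, against 0.12 with it (adjusted p = 0.00343 and 0.0638 by edgeR in that order), and that of Emx1 was 0.01, against 0.18. Their summed scaled counts were 9154, 10203, 9442 and 9778 in propionate mice 1 to 4, against 8625, 8293, 8078 and 8604 in control mice 1 to 4. The groups did not overlap in this sum, which the selection of genes favours. Control mouse 1, the lowest in S100g, was the highest control by little, at 8625 beside 8604 in control mouse 4. Taken singly, the groups overlapped for Pvalb, Emx1 and Gsta4. They did not for Tmem52b, as for 24.1% of all listed genes with propionate above. Beside Pvalb and Emx1 these were Tmem52b, at 5103 ± 209 with propionate and 4553 ± 172 in controls, and Gsta4, a glutathione transferase, at 1682 ± 192 with propionate and 1392 ± 244 in controls (SD, n = 4 each). Their median log2 difference was 0.178, and that of S100g was 0.51.

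Listed markers of the thick ascending limb and principal cells were mixed, while those of intercalated cells were all higher. Of 17 thick ascending limb markers 4 were listed, 2 higher and 2 lower, among them Egf, epidermal growth factor, at 26728 ± 3464 scaled counts with propionate and 32400 ± 356 in controls (SD, n = 4 each). Kcnj1, the potassium channel ROMK, averaged 7109 ± 522 with propionate and 6290 ± 320 in controls. Slc5a3, a myo-inositol transporter, averaged 3885 ± 893 with propionate and 2754 ± 580 in controls. By edgeR 1 of the 4 passed higher and 2 lower, but 2 higher and 0 lower once the trend in gene length and GC content was removed. The log2 difference of Egf was then -0.08 (adjusted p = 0.44), against -0.32 before, that of Kcnj1 0.42 (adjusted p = 0.00482), against 0.14, and that of Slc5a3 0.91, against 0.45. Principal cells had 2 of 18 markers listed, Aqp3, a water channel, at 2871 ± 453 with propionate and 2325 ± 280 in controls, and Scnn1a, the alpha subunit of the epithelial sodium channel, at 2634 ± 151 with propionate and 3120 ± 182 in controls. Intercalated cells had 3 of 20 listed, all higher, with Slc26a4, the exchanger pendrin, at 2476 ± 162 with propionate and 2121 ± 197 in controls. The median log2 difference of these 3 was 0.338, beside 0.178 for the distal convoluted and connecting tubule markers. Their summed scaled counts were 4116 to 5378 with propionate and 3522 to 4047 in controls, without overlap, which their selection favours. The anion exchanger gene Slc4a1 averaged 1849 ± 401 with propionate and 1424 ± 315 in controls, and the homeobox gene Hmx2 averaged 275 ± 61.9 with propionate and 203 ± 23.3 in controls. For these 9 markers the authors' deposited table lists adjusted p-values of 0.0624 to 0.373, so that 0 passed there. By edgeR 5 of the 9 passed, 2 higher and 3 lower, beside 67.9% of all tested genes. The count was 1 without propionate replicate 3 or 4 or control replicate 3, 2 without propionate replicate 2 or control replicate 2, 3 without control replicate 1, 8 (5 higher) with the deposited size factors or total-count scaling, and 9 (6 higher) with DESeq2.

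Genes are listed for a difference between the groups, so the number of markers listed says nothing of which cell types were present. Proximal tubule genes had 18 of 40 symbols listed, 9 higher and 9 lower, and the authors' deposited table has 2 higher and 4 lower past an adjusted p of 0.05, beside 8.13% of all its genes. By edgeR 3 passed higher and 9 lower, beside 25.9% and 41.9% of all tested genes, and 7 higher and 8 lower with the deposited size factors. With the trend in gene length and GC content removed, 4 passed higher and 4 lower. The edgeR count of 12 was 6 and 7 without propionate replicate 3 and 4, and 5 without control replicate 3. The 3 most abundant by scaled counts were Slc34a1, Miox and Lrp2, described above, which was lower except with the trend removed. Slc34a1, the sodium phosphate cotransporter, averaged 79367 ± 5105 scaled counts with propionate and 70091 ± 5575 in controls (SD, n = 4 each). Its groups overlapped, and it did not pass by edgeR (adjusted p = 0.0811). Miox, myo-inositol oxygenase, averaged 59982 ± 5788 with propionate and 50354 ± 4302 in controls, with overlapping groups. Of 13 podocyte markers 1 was listed, Vegfa, at 2265 ± 148 with propionate and 2676 ± 123 in controls (adjusted p = 0.0245 by edgeR, 0.0543 without control replicate 3 and 0.0698 without the trend, and 0.0634 in the authors' deposited table). Of 12 neutrophil markers 1 was listed, the integrin gene Itgb2l, which fell to 22.2 ± 7.82 with propionate, against 66.4 ± 11.7 in controls. Its adjusted p was 0.0158 by edgeR over the tested genes and 0.000631 in the authors' deposited table. Adjusted over all genes behind the deposited adjustment, the edgeR p of Itgb2l was 0.142, which did not pass. Among 14 genes of stress and handling, 6 were listed, 2 higher and 4 lower, and the authors' deposited table has 0 of them past 0.05, with all 6 under an unadjusted 0.05 by selection. By edgeR 1 passed higher and 3 lower, beside 25.9% and 41.9% of all tested genes, and 2 higher and 2 lower with the deposited size factors. The edgeR count was 0 without propionate replicate 3 or 4 and 1 without control replicate 2 or 3. Of these genes, Dnajb1, a heat shock protein, averaged 1028 ± 241 with propionate and 754 ± 55.5 in controls. Jun averaged 697 ± 77.9 with propionate and 822 ± 99.1 in controls, and Zfp36 472 ± 42.4 with propionate and 596 ± 78.3 in controls. No marker of endothelium, T cells, B and plasma cells or fibroblasts was listed, and those genes were not analysed here.

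Genes with a pattern like that of S100g were ranked over the 8 mice by the root-mean-square difference of centred log2(scaled count + 1) among 1534 other protein-coding genes whose mean scaled count reached 50. The closest were Hddc2 (0.131), Cyp2d26, a cytochrome P450 (0.135), Mcoln3, an endolysosomal cation channel (0.147), Slc6a19, a carrier of neutral amino acids in the proximal tubule (0.153), and Bex1 (0.158). The median over all candidates was 0.312. Slc6a19 had 7922, 9836, 8228 and 8216 scaled counts in propionate mice 1 to 4, against 4822, 7261, 5566 and 5014 in control mice 1 to 4. As with S100g, control mouse 1 was the lowest and control mouse 2 the highest control. Cyp2d26 averaged 4865 ± 779 with propionate and 3513 ± 439 in controls (SD, n = 4 each). Mcoln3 averaged 398 ± 44.3 with propionate and 305 ± 52.8 in controls. Bex1 averaged 92 ± 11.1 with propionate and 54.1 ± 6.96 in controls, and Hddc2 averaged 175 ± 11.2 with propionate and 134 ± 25.4 in controls.

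The genes most like Cdh16 were Fiz1 (0.043), Vasn, vasorin, which binds transforming growth factor beta (0.0446), Hdac5, a class II histone deacetylase (0.0446), Apbb1, an adaptor of the amyloid precursor protein (0.0475), and 0610040J01Rik (0.0485), beside a median of 0.181. Hdac5 had 1528, 1486, 1435 and 1648 scaled counts in propionate mice 1 to 4, against 1275, 1330, 1270 and 1266 in control mice 1 to 4. As for Cdh16, propionate mouse 4 was the highest and propionate mouse 3 the lowest of its group. Vasn averaged 593 ± 63.8 with propionate and 489 ± 25.6 in controls, and Apbb1 518 ± 45.2 with propionate and 431 ± 24.8 in controls (SD, n = 4 each). Fiz1 averaged 547 ± 29.3 with propionate and 476 ± 32 in controls, and 0610040J01Rik averaged 1070 ± 77.3 with propionate and 935 ± 33.6 in controls. S100g and Cdh16 differed from each other by 0.229, which places Cdh16 at rank 97 among the genes like S100g and S100g at rank 843 among those like Cdh16. Genes with differences of equal size between the groups are near each other by this measure, so likeness partly restates that difference.

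**Figure D4:**
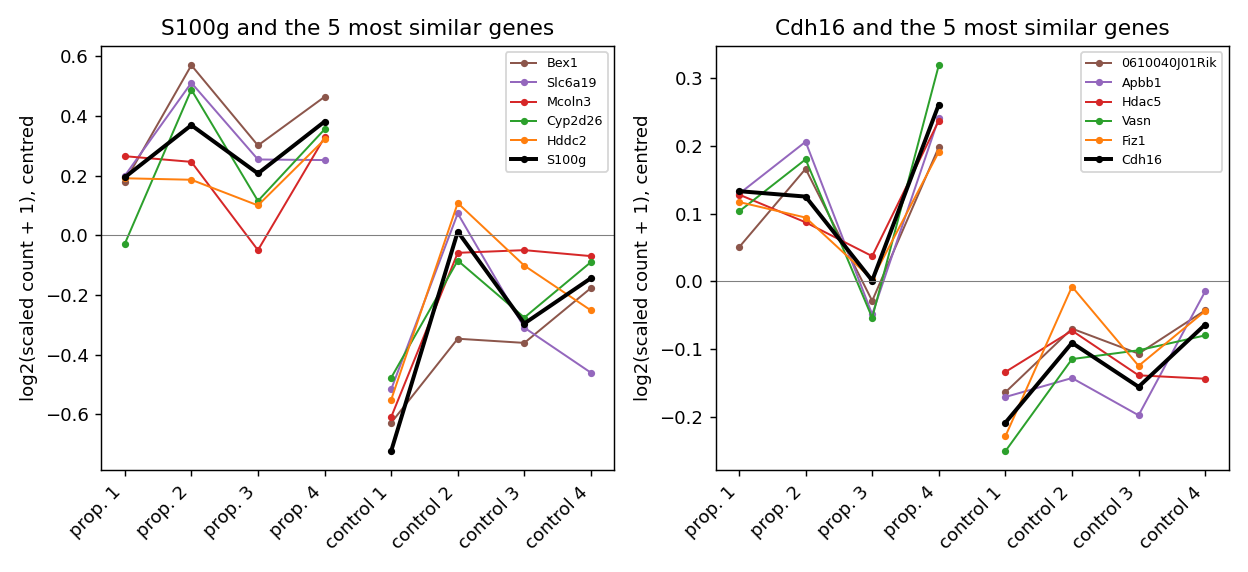
Centred log2(scaled count + 1) in each mouse for S100g (left, black) and Cdh16 (right, black) with the 5 genes nearest to each (coloured); lines join the points of 1 gene within a group and imply no order of mice, and the vertical scales differ. The S100g set dips lowest in control mouse 1, and the Cdh16 set peaks in propionate mouse 4.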

How the data were processed

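Kidney RNA of 8 mice was sequenced as paired reads, with a library kit not given in the sources used here. Members and gene lists were chosen with earlier results of these data known. For 1931 genes the authors deposited read counts, a signal of counts divided by 1 size factor per library (here scaled counts), FPKM, group means, log2 fold changes and p-values, per the file headers. The submitters' processing notes name DESeq2 and mm10, with aligner and counter not given in the sources used here. Deposited adjusted p-values follow from 16064 genes, and the largest deposited p-value is 0.05, so genes were selected on these libraries.

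Groups came from the treatment labels and columns from the sample identifiers. Counts, FPKM and gene length together gave each library's total. The main fit used edgeR 4.0.16 (quasi-likelihood test, R 4.3.3) with TMM factors and the default filter, on 1792 genes, Benjamini-Hochberg adjusted over them. TMM and dispersions rest on selected genes. A standard error is the fold change over the root of the F statistic. "Rose" and "fell" mean past 0.05 by edgeR and in the authors' deposited table. DESeq2 1.42.0 (with the deposited size factors) and limma 3.58.1 were alternatives. GC content came from the longest GENCODE M21 transcript for 1913 genes, and the median was used for the rest. The fit was first tested on simulated data in which most genes were unchanged. It was not tested on genes selected for a difference, as the listed genes were. Named genes are the 2 members, all listed genes of the calcium, EF-hand, cadherin and regulator lists, up to 3 of each other list by mean scaled count, and the 5 genes most like each member. A listed gene was left out of the regulator list and is not reported here. Cltrn, Itgam, Adgre4 and Ctps2 were named after their values or places were seen. Each sample is taken as 1 mouse, which the labels do not state, so p-values measure only the spread between these samples, which may be technical.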

Additional observations from a re-analysis of the deposited data

Results flagged for a closer look

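In 96 groups of 4 mice (48 named genes), a mouse stood far from the other 3 in 7, and chance gives such a mouse in about 1 of 20 groups. None was in S100g or Cdh16. In control mouse 1, Emx1 was at 704 scaled counts (others 875 to 888), Mcoln3 at 226 (others 329 to 334) and Dsg2 at 771 (others 700 to 710). In propionate mouse 4 Dsg2 was at 502 (others 612 to 635), in propionate mouse 1 Slc34a1 at 71776 (others 80951 to 82409) and in propionate mouse 2 Slc6a19 at 9836 (others 7922 to 8228). Hdac5 was at 1330 in control mouse 2 (others 1266 to 1275).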

How the results depend on the processing

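S100g and Cdh16 stayed higher with propionate under all 17 alternatives run for each. Both were selected on this difference, and their groups of scaled counts do not overlap, so the unchanged direction is no further support. The log2 difference of S100g ran from 0.39 (without control replicate 1) to 0.62 with 1 library left out and from 0.52 to 0.64 otherwise. That of Cdh16 ran from 0.2 to 0.26 with 1 library left out and from 0.16 (gene length and GC trend removed) to 0.26 otherwise. Of the listed genes, 1216 passed by edgeR (38.2% higher), 1616 with the deposited size factors (53.4% higher), 1859 with DESeq2, 591 with the trend removed (71.1% higher), 683 with the replicate block and the trend removed, and 6 when adjusted over 16064 genes. Leaving out 1 library gave 148 (control replicate 3) to 1262, with 197, 206, 571, 339 and 568 without propionate replicate 3 and 4 and control replicate 1, 2 and 4. Of the 57 list genes, 37 passed (29.7% higher), 46 with the deposited size factors (47.8% higher), 23 with the trend removed (47.8% higher) and 9 to 36 with 1 library left out. When adjusted over 16064 genes 0 passed by edgeR, where 40 had an unadjusted p under 0.05 and 9 passed in the authors' deposited table. With the trend removed, Atp2b1 (0.23), Calm3 (-0.01), Cdh6 (0.14) and Lrp2 (0.06) changed sign, with the same values under the replicate block; the cause was not tested. With the replicate number as a block and no trend removed, S100g was at 0.53, Cdh16 at 0.22, 1273 listed genes passed and 5 of the 5 macrophage markers did (2 without the block; Cd68 at an adjusted p of 0.0141 and Cx3cr1 at 0.0176 by edgeR); same-numbered mice deviated together in 3 of 4 pairs (correlations 0.253, 0.252, -0.103 and 0.212), so the numbers were not taken as pairs. Between mice of different numbers these correlations ran from -0.291 (propionate mouse 1 and control mouse 2) to 0.385 (propionate mouse 3 and control mouse 1). Only selected genes could be fitted, which limits every scaling.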
